A study of Homo sapiens with 36 samples.

Results

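The human mitochondrial genome is a small circular DNA that codes for subunits of the respiratory chain and the ATP synthase and for the transfer RNAs (tRNAs) and ribosomal RNAs that translate them. Both of its strands are copied into long transcripts that run across many genes. These transcripts are cut, mostly at the tRNAs that lie between the messenger RNAs (mRNAs), and most of the mRNAs then receive a short poly(A) tail. In this convention the heavy-strand transcript carries nearly all mRNAs, and the light-strand transcript carries MT-ND6 and a group of tRNAs.

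The genes described here are the rows of the gene count files placed on the mitochondrial chromosome (MT). There were 35 of them among 57500 genes. They comprised 13 mRNA genes, of which 12 are read from the heavy-strand transcript and 1 (MT-ND6) from the light-strand transcript, and 22 tRNA genes, of which 14 belong to the heavy-strand and 8 to the light-strand transcript. The coordinates of all 35 equalled those of GENCODE v44 on GRCh38, and that annotation places 37 genes on the chromosome of 16569 bases. The 2 ribosomal RNA genes, MT-RNR1 and MT-RNR2, were not analysed here.

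The cells were THP-1, an established human monocytic leukaemia line, in 3 stably transduced versions. All 3 carried a short hairpin RNA: a non-targeting hairpin (shNT), a hairpin against NR4A2 (shNR4A2) or a hairpin against NR4A3 (shNR4A3), both targets being orphan nuclear receptors. Each line was held for 4 h in pre-equilibrated, buffered medium at 5% CO2 or at 10% CO2 (buffered hypercapnia), without or with 2.5 µg/mL lipopolysaccharide (LPS, a bacterial product that activates monocytes) during the last 2 h. The 12 conditions had 3 RNA-seq libraries each, 36 in all, prepared with poly(A) selection. A hairpin and the line that carries it cannot be told apart in this design. The study describes its RNA-seq data as coming from 3 individual experiments, and the labels tie no library to a given experiment. In bulk RNA, fewer cells of a kind and less RNA per cell cannot be told apart.

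The libraries held between 16171161 and 23929138 counts in genes. NR4A2 stood in shNR4A2 cells at 32.2% to 53.0% of its mean level in shNT cells, with no overlap in any of 4 states. NR4A3 in shNR4A3 cells stood at 16.9% to 54.5% of the shNT level with no overlap in 3 of 4 states, and at 78.0% with overlap at 10% CO2 without LPS, where its level was 0.263 TPM (a level per length, scaled to the same sum in each library) in shNT cells. The 16.9%, at 5% CO2 without LPS, also rests on low levels, 0.099 TPM against 0.587 TPM in shNT cells. TNF, a cytokine gene induced by LPS, had between 9.51 and 96.8 TPM without and between 1653 and 2223 TPM with LPS. IL1B, another, had between 11.3 and 38.2 TPM without and between 3670 and 7943 TPM with LPS. Of 10 monocyte markers, 9 were counted in every library and FCN1 was at 0 in 12 of 36. Of 14 markers of other cell types, HBA1, HBB, MS4A1 and KRT19 were at 0 in 24 or more libraries and the sum rested on PECAM1, which had 3304 to 14582 counts. The sum of the 14 ranged from 260 to 616 CPM (counts scaled to the same library total) at 5% CO2 and from 184 to 561 CPM at 10% CO2.

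The ends of the mRNAs bear on how poly(A)-selected libraries see them. Tails were not measured here, so the level of an mRNA and its capture by poly(A) selection cannot be told apart. In 6 of the 13 mRNA genes (MT-ND1, MT-ND2, MT-CO3, MT-ND3, MT-ND4 and MT-CYB) the annotated length is no multiple of 3, and the stop codon is known to be completed by the poly(A) tail. The last 30 bases of MT-CO3, MT-ND3, MT-ND4L and MT-ND4, neighbours on the heavy-strand transcript, and of MT-ND6 are shown 5′ to 3′ because the largest and the smallest CO2 effects among the mRNAs fell on this stretch. Capitals mark the stop codon or the part of it that the genome encodes. They were read from the MT sequence of hg38 on the + strand at 9961 to 9990, 10375 to 10404, 10737 to 10766 and 12108 to 12137, and for MT-ND6 on the - strand at 14149 to 14178.
MT-CO3: tgtatgtctccatctattgatgagggtctT
MT-ND3: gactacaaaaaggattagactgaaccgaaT
MT-ND4L: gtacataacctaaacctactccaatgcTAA
MT-ND4: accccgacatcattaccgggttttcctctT
MT-ND6: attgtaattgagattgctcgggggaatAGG

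MT-ND3 lies at MT 10059 to 10404 and touches a tRNA gene on each side with no base between them. These are MT-TG, the glycine tRNA, at MT 9991 to 10058 and MT-TR, the arginine tRNA, at MT 10405 to 10469, both on the + strand. MT-ND4L (MT 10470 to 10766) follows MT-TR directly and overlaps MT-ND4 (MT 10760 to 12137).
MT-TG: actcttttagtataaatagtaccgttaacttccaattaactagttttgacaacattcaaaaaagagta
MT-TR: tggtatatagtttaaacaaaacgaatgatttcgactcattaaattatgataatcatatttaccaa

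Overlapping genes limit what a gene count can say, because a read that touches 2 genes may be dropped. The 7 shared bases of MT-ND4L and MT-ND4 (MT 10760 to 10766) and the 46 shared bases of MT-ATP8 and MT-ATP6 (MT 8527 to 8572) are given in capitals.
MT-ND4L and MT-ND4, MT 10750 to 10776: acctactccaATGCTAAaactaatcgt
MT-ATP8 and MT-ATP6, MT 8527 to 8572: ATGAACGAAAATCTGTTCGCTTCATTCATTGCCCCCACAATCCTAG

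A further limit is that stretches of the mitochondrial genome have copies in the nuclear chromosomes, and only reads with a single match were counted. In a search of hg38 on both strands, 23% of the bases of the mitochondrial genome lay in a run of 100 or more bases found letter for letter in a nuclear chromosome. The share was 58.2% for MT-CO1, 53.7% for MT-ATP6, 52.1% for MT-ND2, 50% for MT-CO2, 30.5% for MT-ND1, 29.3% for MT-CO3 and 25.6% for MT-ATP8. It was 0 for MT-ND3, MT-ND4L, MT-ND4, MT-ND5, MT-ND6 and MT-CYB. Among the tRNA genes it reached 100% for MT-TQ, MT-TA, MT-TN, MT-TS1 and MT-TK.

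The 13 mRNAs were abundant in every library, whereas the tRNAs were mostly at a few counts. Over the 36 libraries the median level per length was highest for MT-ATP6 (14606 TPM), a subunit of the ATP synthase, followed by MT-ATP8 (10487 TPM), of the same enzyme, and by MT-CO2 (10309 TPM), MT-CO1 (9664 TPM) and MT-CO3 (8653 TPM), the subunits of cytochrome c oxidase. The subunits of complex I (NADH dehydrogenase) had medians from 6045 TPM for MT-ND4 through 5377 TPM for MT-ND1, 4111 TPM for MT-ND2, 4068 TPM for MT-ND4L, 3931 TPM for MT-ND3 and 2742 TPM for MT-ND6 to 1880 TPM for MT-ND5. MT-CYB, cytochrome b of complex III, had 2864 TPM. The ranges over libraries of neighbours in this order overlapped. The levels divide by the full length of a gene, with no correction for bases shared with nuclear copies or with an overlapping gene. Of the 22 tRNA genes, 12 had a median under 20 counts and 7 a median of 100 counts or more. MT-TN, MT-TL1, MT-TY and MT-TC, the tRNAs for asparagine, a leucine, tyrosine and cysteine, together held 83.8% of all tRNA counts. Since mature tRNAs carry no long poly(A) tail, these counts do not measure tRNA abundance.

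The share of all counts that fell in the 35 genes was higher at 10% than at 5% CO2 in each line, with and without LPS. At 5% CO2 the 18 libraries ranged from 1.05% to 2.19% with a median of 1.70%, and at 10% CO2 from 1.54% to 4.15% with a median of 2.70%. In shNT cells without LPS the shares were 1.45%, 1.96% and 1.31% at 5% CO2 and 3.05%, 2.91% and 2.01% at 10% CO2, and with LPS they were 1.60%, 1.28% and 1.78% against 2.92%, 4.15% and 2.28%. The 2 CO2 levels did not overlap in either state of shNT cells. In shNR4A2 cells the shares were 1.76%, 1.48% and 1.92% against 2.81%, 2.09% and 2.99% without LPS, and 1.36%, 1.38% and 2.19% against 2.88%, 2.05% and 2.59% with LPS. Only the second of these pairs overlapped. In shNR4A3 cells they were 2.12%, 1.05% and 2.04% against 3.18%, 2.91% and 1.55% without LPS, and 1.68%, 1.72% and 1.88% against 2.36%, 1.54% and 2.36% with LPS, and both pairs overlapped. The ratio of the means, 10% to 5% CO2, ran from 1.19 in shNR4A3 cells with LPS to 2.00 in shNT cells with LPS.

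**Figure D1:**
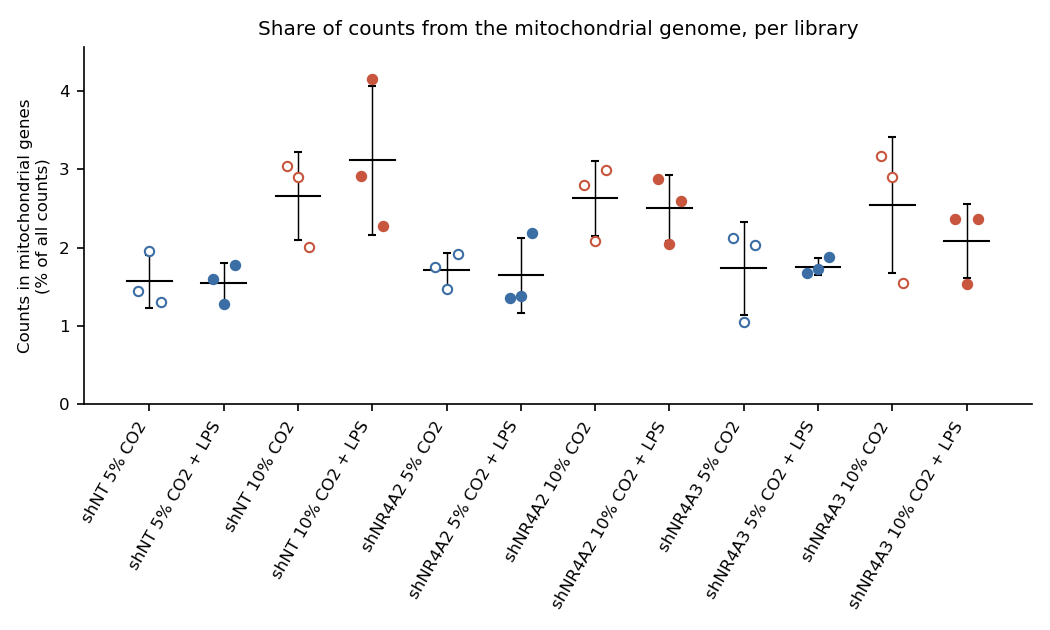
Counts in the 35 mitochondrial genes as a percentage of all counts (vertical axis) for each of the 36 libraries, grouped by condition. Circles are libraries (blue 5% CO2, red 10% CO2, filled with LPS), black lines are means and bars are ± 1 SD (n = 3). The red circles reach 4.15% and the blue circles stay at or below 2.19%.

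Other features of the libraries were set beside this difference. Total counts were higher at 10% CO2 in 4 of 6 line and LPS states and overlapped in each. The share of 16 RNAs that lack a poly(A) tail, nearly all of it RN7SL2, was 0.000638% to 0.00863% at 5% CO2 and 0.000865% to 0.0219% at 10% CO2, and its mean was higher at 10% CO2 in 5 of 6 states, without overlap in 2. The summed markers of other cell types were lower at 10% CO2 in 6 of 6 states, without overlap in 1, and the summed monocyte markers were lower in 6 of 6, without overlap in 2. The part of these RNAs and markers in the mitochondrial values was not tested.

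To ask which mitochondrial genes changed with CO2, the 6 comparisons of 10% with 5% CO2 were averaged in a fit of all 17720 genes that passed the filter on low counts. Of the 35 genes, 31 passed it, and MT-TD, MT-TK, MT-TR and MT-TW did not. At 10% CO2, 22 of these 31 were higher and 1 was lower (edgeR quasi-likelihood test, Benjamini-Hochberg adjusted p under 0.05), where 17.0% of all tested genes were higher and 19.4% lower. The median log2 fold change of the 13 mRNAs was 0.62, against -0.00 for all tested genes. The 12 mRNAs called higher kept that call in all 36 fits that left out a library and in every other setting tried.

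MT-ND4, MT-ND4L, MT-CO1 and MT-CO3, all heavy-strand mRNAs, had the highest log2 fold changes of the 13 mRNAs, and MT-ND3, MT-ND2 and MT-ND1, also heavy-strand, had the lowest. MT-ND4, a subunit of complex I, had the largest change among the mRNAs. Its level in shNT cells was 4194, 5796 and 4453 TPM at 5% CO2 and 9613, 9984 and 6894 TPM at 10% CO2, in shNR4A2 cells 5106, 4492 and 5906 against 9569, 7735 and 10382 TPM, and in shNR4A3 cells 5909, 3103 and 6181 against 10374, 10392 and 5009 TPM. The CO2 levels were apart in shNT and shNR4A2 cells, while in shNR4A3 cells replicate 3 at 10% CO2 lay inside the range at 5% CO2. With LPS the values were 4555, 3813 and 5241 against 9067, 13282 and 7342 TPM in shNT cells, 3688, 4122 and 6690 against 9103, 6906 and 8562 TPM in shNR4A2 cells, and 4648, 5126 and 5659 against 7906, 4905 and 7663 TPM in shNR4A3 cells. Again shNR4A3 cells were the line with an overlap. The averaged log2 fold change of MT-ND4 was 0.86 (SE 0.13, edgeR adjusted p = 1.04e-05), a 1.82-fold difference.

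MT-ND4L, transcribed with MT-ND4 and overlapping it, changed by 0.84 (SE 0.13, edgeR adjusted p = 1.53e-05). MT-CO1, the catalytic core of cytochrome c oxidase, was at 6466, 8429 and 6481 TPM in shNT cells at 5% CO2 and at 16844, 14428 and 9933 TPM at 10% CO2. These groups did not overlap, and the averaged log2 fold change of MT-CO1 was 0.79 (SE 0.14, edgeR adjusted p = 6.69e-05). The oxidase subunit MT-CO3 changed by 0.68 (SE 0.12, edgeR adjusted p = 0.000102). MT-CO2, its other mitochondrially encoded subunit, changed by 0.50 (SE 0.08, edgeR adjusted p = 1.60e-05), with a narrower spread than the others. The ATP synthase mRNAs MT-ATP6 and MT-ATP8 changed by 0.63 (SE 0.14) and 0.61 (SE 0.14), MT-ND5 by 0.62 (SE 0.12), MT-CYB by 0.51 (SE 0.12), MT-ND1 by 0.44 (SE 0.13) and MT-ND2 by 0.40 (SE 0.11), with edgeR adjusted p-values from 0.000150 to 0.00923.

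MT-ND3, a further subunit of complex I, was the exception among the 13 mRNAs. Its level in shNT cells was 3229, 4055 and 3974 TPM at 5% CO2 and 3337, 3758 and 3952 TPM at 10% CO2, and with LPS 3523, 3557 and 4255 against 3536, 4020 and 4047 TPM. In shNR4A2 cells it was 3622, 4214 and 4022 against 3721, 3754 and 4152 TPM, and with LPS 3976, 3582 and 4642 against 3684, 4219 and 4326 TPM. In shNR4A3 cells it was 3828, 3750 and 4564 against 3777, 3869 and 3941 TPM, and with LPS 3543, 3921 and 4352 against 3697, 4162 and 4306 TPM. The CO2 levels overlapped in all 6 states, and over the 36 libraries MT-ND3 ranged only from 3229 to 4642 TPM. The averaged log2 fold change was 0.05 (SE 0.05, 95% interval -0.04 to 0.14, edgeR adjusted p = 0.387). The intervals of its mRNA neighbours lay above that of MT-ND3, at 0.44 to 0.92 for MT-CO3 upstream and at 0.58 to 1.09 for MT-ND4L downstream.

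**Figure D2:**
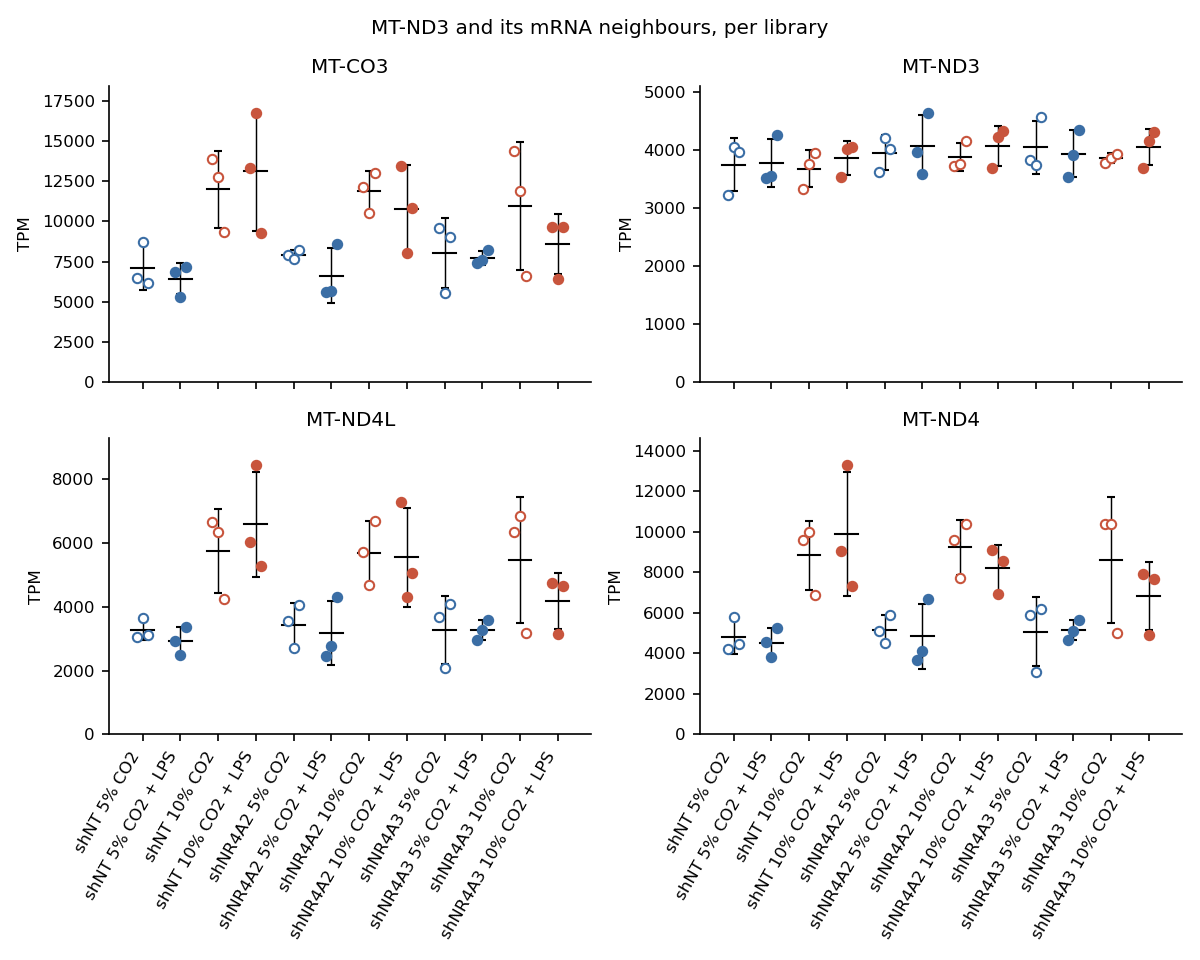
Level in TPM (vertical axes, each from 0 with its own scale) of MT-ND3 and of its mRNA neighbours MT-CO3, MT-ND4L and MT-ND4 in every library, grouped by condition. Colours, lines and bars are as in the plot of the mitochondrial share of counts (n = 3). MT-ND3 stays between 3229 and 4642 TPM in both colours, and in the other panels most red circles lie above the blue ones.

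**Figure D3:**
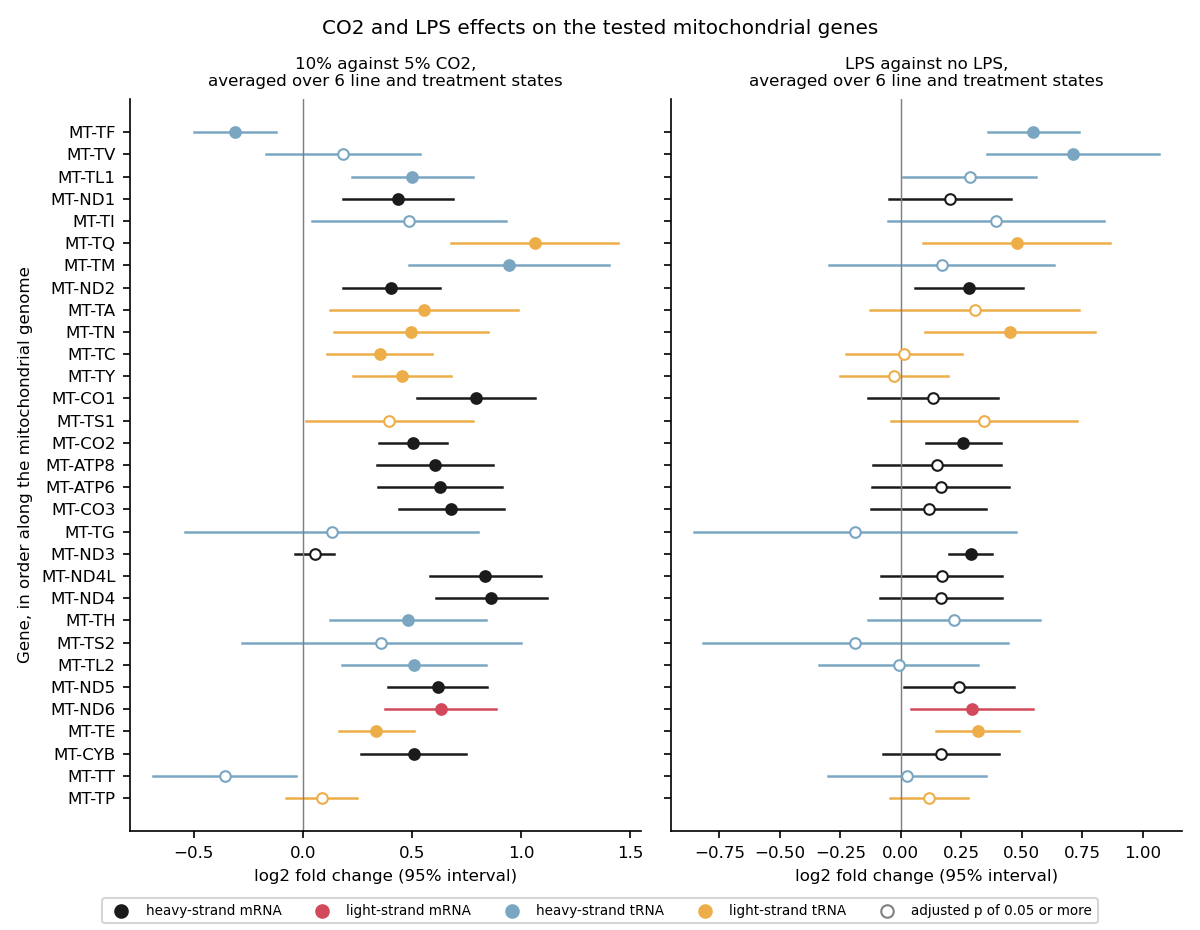
The log2 fold changes with 95% intervals (horizontal axes) of the 31 tested mitochondrial genes in genome order, for 10% against 5% CO2 on the left and LPS against no LPS on the right, each averaged over 6 states. Filled circles have an edgeR adjusted p under 0.05. On the left 22 genes are filled to the right of 0 and MT-TF to the left of it, and on the right 9 genes are filled.

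MT-ND6, the light-strand mRNA for a complex I subunit, also rose. In shNT cells it was at 2068, 2486 and 2047 TPM at 5% CO2 and at 4052, 3590 and 2531 TPM at 10% CO2, with no overlap. Its averaged log2 fold change was 0.63 (SE 0.13, edgeR adjusted p = 0.000395), and the median of the 12 heavy-strand mRNAs was 0.61. Expressed as a percentage of the counts of the 12 heavy-strand mRNAs, MT-ND6 stood at a median of 2.11% at either CO2 level, with ranges of 1.61% to 2.59% at 5% CO2 and 1.77% to 2.36% at 10% CO2. The log2 ratio differed by 0.01 on average between CO2 levels, from -0.08 to 0.14 over the 6 states, where the SD between replicates was 0.14. Against the median of the 12 heavy-strand mRNAs in place of their sum, which weights the most counted genes, MT-ND6 was higher at 10% CO2 in 6 of 6 states, by 0.22 on average and from 0.15 to 0.30, with an SD between replicates of 0.13 and with overlap in 5 of the 6. The CO2 difference of this ratio thus depended on the denominator. Whether the counting used strand is not given in the sources used here, so reads from MT-ND6 and from RNA antisense to it cannot be told apart. The tail of MT-ND6 was not measured, so its ratio to the heavy-strand mRNAs may also reflect capture by poly(A) selection.

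The tRNA genes rose less evenly. Of 18 tested, 10 were called higher at 10% CO2 and 1 lower. The median log2 fold change was 0.42 for the 10 tested heavy-strand and 0.42 for the 8 light-strand tRNA genes. With the strand setting of the counting unknown, reads from a tRNA gene and from RNA antisense to it cannot be told apart. These medians therefore do not compare the strands. The same limit applies to MT-TN, MT-TY and MT-TC, which are light-strand genes. MT-TQ (glutamine) changed by 1.06 (SE 0.19, edgeR adjusted p = 5.84e-05) and MT-TM (methionine) by 0.94 (SE 0.23, edgeR adjusted p = 0.00169), but they had only 3 to 41 and 1 to 21 counts per library. Among the better counted genes, MT-TL1 changed by 0.50 (SE 0.14), MT-TN by 0.49 (SE 0.18), MT-TY by 0.45 (SE 0.11) and MT-TC by 0.35 (SE 0.12). MT-TE, MT-TH, MT-TL2 and MT-TA made up the rest of those called. The calls of MT-TA, MT-TH and MT-TN were lost in 19, 13 and 9 of the 36 fits that left out a library. MT-TV, MT-TI, MT-TS1, MT-TG, MT-TS2, MT-TT and MT-TP did not pass the test.

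MT-TF, the phenylalanine tRNA at the start of the heavy-strand transcript (MT 577 to 647, 113 to 366 counts per library), went the other way. Without LPS its level was 576, 551 and 512 TPM at 5% CO2 and 528, 295 and 371 TPM at 10% CO2 in shNT cells, 620, 537 and 663 against 390, 332 and 474 TPM in shNR4A2 cells, and 716, 548 and 676 against 354, 492 and 417 TPM in shNR4A3 cells. The groups were apart in both knockdown lines and overlapped in shNT cells. With LPS they were 528, 464 and 505 against 622, 588 and 521 TPM in shNT cells, 666, 603 and 876 against 785, 423 and 636 TPM in shNR4A2 cells, and 768, 637 and 863 against 571, 338 and 629 TPM in shNR4A3 cells, where alone they were apart in TPM. On the scale of normalised counts the groups with LPS were instead apart in shNT cells alone, with 10% CO2 higher by 0.34. The separation of MT-TF with LPS thus depended on the scale. The averaged log2 fold change of MT-TF was -0.31 (SE 0.10, edgeR adjusted p = 0.0105). The log2 ratio of the summed tRNA counts to the summed heavy-strand mRNA counts was lower at 10% CO2 in each of the 6 states, by -0.13 to -0.31 with a mean of -0.23 and an SD between replicates of 0.16. Against the median of the heavy-strand mRNAs the mean difference was -0.02, from -0.13 to 0.13, with 3 states up and 3 down. The tRNA genes held 1.18% to 1.69% of the mitochondrial counts at 5% CO2 and 0.964% to 1.41% at 10% CO2, and only shNR4A2 cells without LPS showed no overlap.

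**Figure D4:**
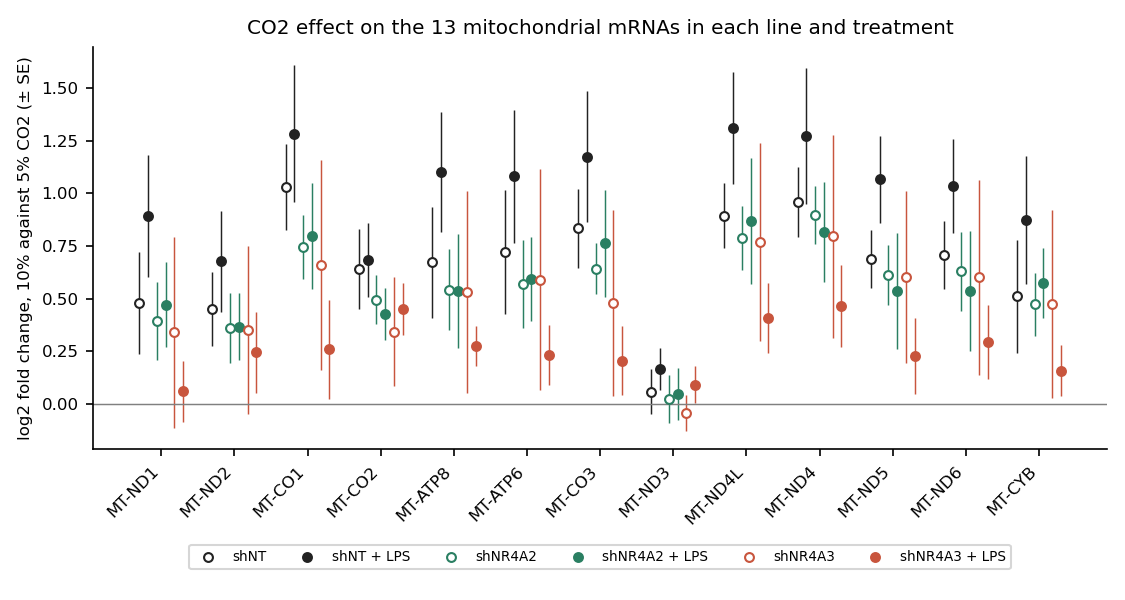
The log2 fold change of 10% against 5% CO2 with its SE (vertical axis) for the 13 mitochondrial mRNAs in genome order, in each line without LPS (open circles) and with LPS (filled circles). MT-ND3 stays between -0.04 and 0.17 in the 6 comparisons, and the other 12 mRNAs lie above 0 in each of them.

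Within a line fewer mitochondrial genes were called, and edgeR and DESeq2 differed in how many. In shNT cells without LPS, 3 of 31 genes were called higher, MT-ND4L (0.89, SE 0.16), MT-ND4 (0.96, SE 0.17) and MT-ND5 (0.69, SE 0.14), with edgeR adjusted p-values of 0.0325, 0.0416 and 0.0447, where 0.327% of all genes were higher, and DESeq2 called 7. With LPS, 6 were called higher (MT-TV, MT-TQ, MT-TY, MT-TL2, MT-ND5 and MT-TE), where 4.47% of all genes were higher, and DESeq2 called 18. In shNR4A2 cells without LPS, only MT-ND4 was called (0.90, SE 0.14, edgeR adjusted p = 0.04996), where 0.00564% of genes, MT-ND4 itself, were higher, and DESeq2 called 6. Here same-numbered libraries deviated together, and with the replicate number as a block 15 mitochondrial genes were called. No mitochondrial gene was called in shNR4A2 cells with LPS, in shNR4A3 cells or in shNR4A3 cells with LPS, where 0.152%, 0.559% and 0.931% of all genes were higher. In these 3 comparisons, respectively, 10, 3 and 5 genes had an unadjusted edgeR p under 0.05 and DESeq2 called 6, 1 and 2. Single libraries moved these counts, from 0 to 9 in shNT cells, from 1 to 11 in shNT cells with LPS and from 0 to 12 in shNR4A2 cells with LPS. The shares of all genes in this paragraph belong to the edgeR calls at adjusted p without a block. They give no background for the counts by DESeq2, with the block or at unadjusted p.

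The log2 fold changes of 12 mRNAs were above 0 in all 6 comparisons, and that of MT-ND3 in 5 of 6. Without overlap between CO2 levels, on the scale of normalised counts, were 15 of the 31 genes in shNT cells (10.6% of all genes were higher without overlap), 24 in shNT cells with LPS (15.7%), 8 in shNR4A2 cells (6.47%), 3 in shNR4A2 cells with LPS (10.9%), 2 in shNR4A3 cells (11.9%) and 2 in shNR4A3 cells with LPS (12.3%). In the last 3 comparisons this share of the members was near or below the background. Lower without overlap were 1 of the 31 in shNR4A2 cells (7.44% of all genes) and 2 in shNR4A3 cells (10.1%), as many as were higher there. None were lower without overlap in shNT cells (9.30%), shNT cells with LPS (14.3%), shNR4A2 cells with LPS (10.6%) or shNR4A3 cells with LPS (12.7%).

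The CO2 effect on the 13 mRNAs had medians of 0.69 in shNT cells, 0.57 in shNR4A2 cells and 0.53 in shNR4A3 cells without LPS, and of 1.07, 0.54 and 0.25 with LPS. The difference between lines was fitted directly. Against shNT cells, the CO2 effect in shNR4A2 cells was lower for all 13 mRNAs, with a median of -0.27, and in shNR4A3 cells also for all 13, with a median of -0.49. The 13 mRNAs are not separate observations, since their deviations between replicates correlated with a median Pearson r of 0.93. Both differences also rest on the same shNT libraries. None of the 31 genes passed the adjusted threshold in either fit by edgeR, nor did any gene of all tested (0%), and DESeq2 called 0 members in both. At an unadjusted edgeR p under 0.05 there were 2 members for shNR4A2 (MT-TI and MT-TL2) and 7 for shNR4A3 (MT-TF, MT-TC, MT-TY, MT-CO1, MT-CO3, MT-TS2 and MT-TE). No share of all genes at this unadjusted threshold is given here, so such counts have no background beside them. MT-CO1 is an example of the width of these differences, with -0.70 (SE 0.34, edgeR adjusted p = 1.00) for shNR4A3. The interaction of CO2 with LPS, averaged over lines, was called for 0 members by edgeR and by DESeq2, where 1.99% of all genes were called, and 1 member, MT-TF, had an unadjusted edgeR p under 0.05.

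LPS was compared with no LPS in the same way. In the average over lines and CO2 levels 9 of 31 genes were called, all higher, where a similar share of all genes (30.5%) was higher. They were MT-ND3 (0.29, SE 0.05, edgeR adjusted p = 1.25e-06), MT-CO2 (0.26, SE 0.08), MT-ND2 (0.28, SE 0.11) and the light-strand MT-ND6 (0.30, SE 0.13) among the mRNAs, and MT-TF (0.55, SE 0.10), MT-TV (0.71, SE 0.18), MT-TQ, MT-TN and MT-TE among the tRNAs. MT-ND3, which had the smallest CO2 effect of the mRNAs, had the smallest p-value for LPS. Its log2 fold change was near those of MT-CO2, MT-ND2 and MT-ND6, and its SD between replicates, 0.15, was the lowest of the 13 mRNAs. The median over the 13 mRNAs was 0.17, with MT-ND4 at 0.17 (SE 0.13) and MT-CO1 at 0.13 (SE 0.14), neither called. Leaving out 1 library at a time gave between 5 and 11 calls, the lowest without shNR4A3 cells at 10% CO2, replicate 3, and the call of MT-ND6 was lost in 20 of these 36 fits.

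This LPS result depended on how libraries were scaled. LPS raised the share of counts held by the 100 most abundant nuclear genes in each of 6 states, by 3.35 percentage points on average. Scaling by library size alone moved the median of all genes to -0.22, and then only MT-TF (0.33) and MT-TV (0.50) were called. MT-ND3 became 0.08 (edgeR adjusted p = 0.143), and 8 of the 13 mRNAs had a log2 fold change below 0. The share of counts in mitochondrial genes differed by -0.03 percentage points between LPS and no LPS, with differences from -0.46 to 0.46 over the 6 states, 4 of them below 0, and with overlap in each. The summed markers of other cell types were lower with LPS in 6 of 6 states, without overlap in 5, and their part in the LPS values was not tested. The CO2 increase of the 12 mRNAs was called under each scaling.

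In the comparisons within a line and CO2 level, LPS gave 2 calls in shNT cells at 5% CO2 (MT-TV and MT-TN, where 22.9% of all genes were called) and 6 at 10% CO2 (MT-TF, MT-TQ, MT-TY, MT-CO2, MT-ND3 and MT-TE, 31.2%). In shNR4A2 cells it gave 0 at 5% CO2 (18.2%) and 2 at 10% CO2 (MT-TF and MT-ND3, 35.0%), and in shNR4A3 cells 0 at 5% CO2 (25.3%) and 1 at 10% CO2 (MT-ND3, 42.1%). For the 2 comparisons with 0 calls, 5 and 1 members had an unadjusted edgeR p under 0.05 and DESeq2 called 0 in both. With the replicate number as a block, these 2 comparisons, in which same-numbered libraries deviated together, gave 5 and 3 calls. In the edgeR tests without a block, the called share of the members was below that of all genes in every comparison. The counts by DESeq2, with the block and at unadjusted p have no share of all genes beside them. The log2 fold change of MT-ND3 was 0.35 (SE 0.09), 0.35 (SE 0.10) and 0.34 (SE 0.07) at 10% CO2 in shNT, shNR4A2 and shNR4A3 cells. In TPM, which do not use this scaling, the same libraries overlapped in all 3 lines.

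The ratio of MT-ND6 to the heavy-strand mRNAs, formed within a library, does not depend on how libraries are scaled. With the summed counts as denominator its mean was higher with LPS in all 6 states, by 0.05 to 0.19 on the log2 scale with a mean of 0.12, but LPS and no LPS overlapped in each and the SD between replicates was 0.14. With the median as denominator it was higher in 5 of 6, by 0.05 on average. LPS by line interactions were called for 0 members with either hairpin by edgeR (0.237% of all genes for shNR4A2 and 0.378% for shNR4A3) and by DESeq2, and 0 had an unadjusted edgeR p under 0.05.

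Between lines, averaged over the 4 states of CO2 and LPS, the mitochondrial mRNAs differed little. Against shNT cells, shNR4A2 cells had 2 called members, where 40.9% of all genes were called, and shNR4A3 cells had 1, where 32.9% were. These were MT-TI (0.84, SE 0.27) and MT-TM (0.76, SE 0.29), with at most 13 and 21 counts per library, and MT-TS1 (0.76, SE 0.24), with at most 34. The 13 mRNAs had medians of -0.01 for shNR4A2 and -0.06 for shNR4A3, and 0 of 13 were called in either.

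Replicates of a condition differed more in the mitochondrial mRNAs than in other abundant genes. The median SD between replicates of the 13 mRNAs was 0.40 on the log2 CPM scale, against 0.12 for the 2186 genes with a mean of 100 CPM or more. Within a condition the highest library had 1.12 to 2.05 times the mitochondrial share of the lowest. The widest was shNR4A3 at 10% CO2, with 3.18%, 2.91% and 1.55%. The replicate with the highest share was number 1 in 4 conditions, number 2 in 2 and number 3 in 6. For the ratio of MT-ND6 to the summed heavy-strand mRNAs, the highest was number 1 in 2 conditions, number 2 in 1 and number 3 in 9. The part of the replicate number in this ratio was not tested.

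The deviations were shared by the mRNAs. Across the 36 libraries the deviations from the condition means correlated between pairs of mRNAs with a median Pearson r of 0.93 (78 pairs), and 92.6% of their variance lay on the first principal component. The points share library and depth. Again MT-ND3 differed: its SD was 0.15, larger than that of 69.4% of the abundant genes, where the other 12 mRNAs ranged from 0.25 (MT-CO2) to 0.45 (MT-ATP6), and its median r with the other 12 was 0.41. Over the 13 mRNAs, the CO2 log2 fold change had a Pearson r of 0.76 and a Spearman rho of 0.55 with the SD between replicates. MT-ND3 was the lowest of the 13 on both, and the values without it are not given here. The r and rho were -0.62 and -0.49 with the LPS log2 fold change and 0.15 and 0.35 with the start position. With the log2 of the mean TPM they were 0.25 and 0.19. These are descriptions across genes that share libraries, and genes are not independent replicates.

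**Figure D5:**
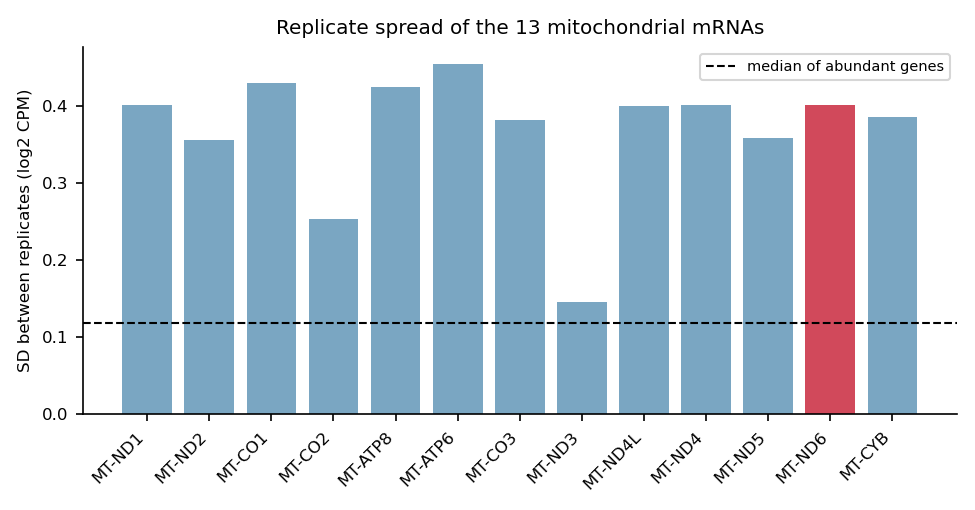
The SD between replicates of log2 CPM (vertical axis, from 0) for the 13 mitochondrial mRNAs in genome order, MT-ND6 in red, with the median of 2186 abundant genes as a dashed line. The bars lie between 0.25 and 0.45 except that of MT-ND3 at 0.15, and the line lies at 0.12.

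Some nuclear copies of mitochondrial genes were also higher at 10% CO2. Of 399 such genes among the rows, 7 passed the filter and 3 had a mean of 100 counts or more, all 3 on chromosome 1: MTND2P28 (629640 to 630683, mean 5254 counts), MTATP6P1 (633696 to 634376, 3431 counts) and MTCO1P12 (631074 to 632616, 352 counts). At 10% CO2 they changed by 0.39 (SE 0.09), 0.60 (SE 0.12) and 0.77 (SE 0.16), each called, beside 0.40 for MT-ND2, 0.63 for MT-ATP6 and 0.79 for MT-CO1. Reads of near-identical copies can be assigned to either place, so the counts of these pairs are uncertain.

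Nuclear genes for proteins that act on mitochondrial DNA and RNA were counted as well. At 10% CO2, of 14 genes for transcription and replication of the mitochondrial genome, 8 were higher and 1 lower, with a median log2 fold change of 0.13, and of 21 genes for processing and decay of its RNA, 14 were higher and 0 lower, with a median of 0.16. Of all tested genes, 17.0% were higher and 19.4% lower in this comparison. Of 6 tested regulators of mitochondrial biogenesis, 0 were higher and 1 was lower. MTERF3, a mitochondrial transcription termination factor family member, changed by 0.48 (SE 0.06), TFB1M, a ribosomal RNA methyltransferase that stood on both of the first lists, by 0.46 (SE 0.08) and TRNT1, which adds the CCA end to tRNAs, by 0.41 (SE 0.08). The lowest of the called genes were NRF1, a regulator of nuclear genes for the respiratory chain, at -0.18 (SE 0.04), POLG2, the accessory subunit of the mitochondrial DNA polymerase, at -0.14 (SE 0.05) and TOP1MT, the mitochondrial topoisomerase, at 0.08 (SE 0.03). POLRMT, the mitochondrial RNA polymerase, and TFAM, which packages mitochondrial DNA and starts its transcription, changed by 0.25 (SE 0.05) and 0.24 (SE 0.04) and were chosen after their values had been looked at.

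Under LPS the same lists gave 2 higher and 9 lower of 14 for transcription and replication (median -0.24), 6 higher and 9 lower of 21 for processing and decay (median -0.05) and 2 higher and 3 lower of 6 regulators (median -0.14), where 30.5% of all genes were higher and 34.1% lower. GABPB1, a subunit of a factor that regulates respiratory chain genes, changed by 0.37 (SE 0.03), PNPT1, a mitochondrial RNA exonuclease, by 0.37 (SE 0.03) and NSUN4, a ribosomal RNA methyltransferase, by 0.36 (SE 0.03). PPARGC1B, a coactivator of mitochondrial biogenesis, changed by -1.61 (SE 0.09), POLG2 by -1.14 (SE 0.05) and MTERF2 by -1.11 (SE 0.10). The shift of all genes with the scaling given above applies to these LPS values too.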

How the data were processed

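Gene counts deposited by the authors were used as given: raw counts of reads per gene from 36 poly(A)-selected libraries of THP-1 cells, 1 file each. Per the submitters' processing notes and the study's methods, reads were trimmed with Trimmomatic 0.36, aligned to GRCh38 with STAR 2.5.2b and counted with featureCounts (Subread 1.5.2) as unique hits, which drops reads that match several places. The annotation release and the strand setting are not given in the sources used here. Columns other than the count and the gene's position and length were not used.

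Depth is given with the results, and intervals and SEs include counting error. No pair of replicates agreed within sampling noise (lowest chi-square per degree of freedom 5.98 over 36 pairs). Gene IDs were matched to symbols of GENCODE v44 (56410 of 57500). Genes were kept by edgeR's filterByExpr over the 12 conditions (minimum count 10, minimum total 15), scaled by TMM and tested with edgeR 4.0.16 (quasi-likelihood, robust) in R 4.3.3, on the 6 libraries of a pairwise comparison or on all 36 for averages and interactions. Called means a Benjamini-Hochberg adjusted p under 0.05 over all 17720 genes. The SE is the log2 fold change divided by the square root of F, and intervals are 1.96 SE. TPM rest on each gene's length column and on the sum over every row. The scripts were tested on simulated data.

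The genes described, the gene lists and the tests were chosen with earlier results of these data known. Named were all mitochondrial genes, 4 label checks, the 3 highest and 3 lowest called genes of the nuclear lists, and nuclear copies with a mean of at least 100 counts. Alternatives were RLE factors, library size only, TMM without mitochondrial genes, DESeq2 1.42.0, no filter, the replicate block, a joint fit and leaving out each library. Replicate numbers in the labels are not said to mark shared cultures. Pairs were taken to be real where deviations from the group means correlated above 0.1 in all 3 pairs: 10% against 5% CO2 in shNR4A2 (0.31, 0.29 and 0.19), and LPS in shNR4A2 at 5% CO2 (0.23, 0.18 and 0.26), in shNR4A3 at 5% CO2 (0.16, 0.15 and 0.11) and in shNR4A3 at 10% CO2 (0.26, 0.15 and 0.14). Over all conditions, libraries of the same number in different conditions had a median correlation of 0.096, with 49.0% of 198 pairs above 0.1. For libraries of different numbers it was -0.056, with 7.58% of 396 pairs above 0.1. The main tests used no block.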

Additional observations from a re-analysis of the deposited data

Results flagged for a closer look

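The 3 tRNA genes MT-TF, MT-TT and MT-TE had groups that did not overlap, on the scale of normalised counts, and that lay in opposite directions under the same contrast. They were found by looking over every CO2 and LPS comparison, and the share of all genes that meet this rule is not given here. In single CO2 comparisons 6.47% to 15.7% of all genes were higher without overlap and 7.44% to 14.3% were lower. MT-TF (113 to 366 counts per library) changed with 10% CO2 by 0.34 in shNT cells with LPS and by -0.55 and -0.59 in shNR4A2 and shNR4A3 cells without LPS. MT-TT (14 to 116 counts) changed with 10% CO2 by 0.52 in shNT cells with LPS and by -0.71 in shNR4A3 cells without LPS. MT-TE (26 to 80 counts) changed with LPS by -0.25 in shNT cells at 5% CO2, and by 0.71 in shNT cells at 10% CO2, 0.66 in shNR4A2 cells at 5% CO2 and 0.51 in shNR4A3 cells at 5% CO2. The differences between these particular comparisons were not tested. The nearest fitted differences, the interactions averaged over the other factors, did not pass: for CO2 with LPS the edgeR adjusted p was 0.336 for MT-TF, 0.430 for MT-TT and 0.981 for MT-TE.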

How the results depend on the processing

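The count of members called for CO2 averaged over states stayed between 22 and 23 under every other setting and between 21 and 24 without a library. No share of all genes called is given beside the counts under other settings or without a library. With DESeq2 the counts within a line became 7 in shNT, 18 in shNT with LPS, 6 in shNR4A2, 6 in shNR4A2 with LPS, 1 in shNR4A3 and 2 in shNR4A3 with LPS for CO2, and 2 for LPS in shNR4A3 at 10% CO2. Without the filter they became 12, 10, 3, 1 and 4 for CO2 in shNT, shNR4A2, shNR4A2 with LPS, shNR4A3 and shNR4A3 with LPS, 1 and 3 for LPS in shNR4A3 at 5% and 10% CO2, and 1 and 2 for shNR4A2 and shNR4A3 against shNT. With library size only they became 0 for CO2 in shNR4A2, 0 and 2 for LPS in shNT at 5% and 10% CO2, 1 in shNR4A2 at 10% CO2 and 2 for LPS averaged. In a joint fit to all 36 libraries they became 0 in shNT, 11 in shNT with LPS and 0 in shNR4A2 for CO2, and 0, 3 and 2 for LPS in shNT at 5% and 10% CO2 and in shNR4A2 at 5% CO2. With the replicate block they became 11, 3, 15, 3, 1 and 1 for CO2 in the order shNT, shNR4A2 and shNR4A3, each without and with LPS. Of these CO2 comparisons only shNR4A2 without LPS met the rule for pairs given above, which does not show that pairing was absent in the others. For LPS the counts became 21 in shNT at 10% CO2, 5 and 10 in shNR4A2 at 5% and 10% CO2 and 3 in shNR4A3 at 5% CO2. The block moved no other count by over 1.5 times, and shNT with LPS at 5% CO2 went from 2 to 3.

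Without a library the counts for CO2 ranged from 0 to 9 in shNT (0 without 5% CO2 replicate 1 or 3 or 10% CO2 replicate 2, and 9 without 5% CO2 replicate 2 or 10% CO2 replicate 3), from 1 to 11 in shNT with LPS (1 without 5% CO2 replicate 1 or 2 or 10% CO2 replicate 1, and 11 without 10% CO2 replicate 3), from 0 to 1 in shNR4A2 (0 without 5% CO2 replicate 1 or 2 or 10% CO2 replicate 1 or 3) and from 0 to 12 in shNR4A2 with LPS (12 without 5% CO2 replicate 3). For LPS they ranged from 0 to 2 in shNT at 5% CO2 (below 2 without any of the untreated libraries or LPS replicate 1 or 3), from 3 to 11 in shNT at 10% CO2 (3 without untreated or LPS replicate 2, and 11 without LPS replicate 3), from 0 to 3 in shNR4A2 at 5% CO2 (3 without LPS replicate 2), from 1 to 3 in shNR4A2 at 10% CO2 (1 without untreated replicate 2), from 0 to 1 in shNR4A3 at 5% CO2 (1 without LPS replicate 2), from 1 to 2 in shNR4A3 at 10% CO2 (2 without untreated replicate 3 or LPS replicate 2) and from 5 to 11 averaged (5 without shNR4A3 10% CO2 replicate 3). Against shNT they ranged from 1 to 2 for shNR4A2 and from 0 to 2 for shNR4A3 (0 without 5% CO2 with LPS replicate 3 and 2 without 10% CO2 replicate 2). The cause of these changes was not tested. With the median of the heavy-strand mRNAs as denominator, an alternative chosen after seeing the data, the CO2 difference became 0.22 for the MT-ND6 ratio and -0.0241 for the tRNA ratio. The percentage of mitochondrial counts, and both ratios under the other alternatives, moved by less than the SD between replicates. The ratio of the ribosomal RNAs to the heavy-strand mRNAs was not run. Depth limits the tRNA genes, of which 12 had a median under 20 counts.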
